A study of Mus musculus with 24 samples.

Results

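Nuclear receptors are transcription factors that share a zinc-finger DNA-binding domain and a ligand-binding domain. Hormones, vitamins, bile acids, oxysterols, fatty acids and drugs act through them, and many bind DNA as a pair with a retinoid X receptor (RXR). In the liver they set the transcription of genes for fatty acid oxidation, lipid synthesis, bile acid and drug metabolism, gluconeogenesis and daily timing. The 33 receptors described here were picked by gene symbol from a count table of 56205 gene rows and leave out the other 16 nuclear receptor genes of the mouse. Transcript levels were measured by RNA-Seq of polyA RNA from whole liver of C57BL/6J mice, male and female, kept for 20 weeks on a methionine-choline deficient (MCD) diet or on a control diet, with 12 libraries per diet. The control diet is called chow in the labels, and the methods of the study put the MCD diet among those high in fat. By the series design each diet group held both sexes, while the labels give neither the animals' age nor the sex of a library. In whole liver, fewer cells of a type and less RNA per cell cannot be told apart.

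Total counts ran from 16388650 to 24915175 per library. Hepatocyte markers were abundant in both diets. Their 8 transcripts summed to a median of 116200 CPM (counts relative to a library size scaled by trimmed mean of M values, TMM) in control and 91500 in MCD. Control replicate 12 stood apart from the other 11 controls. It had a TMM factor of 0.642 against 0.792 to 0.973, and 5.34% mitochondrial counts against 7.38% to 11.5%. In that library genes with transcripts under 2.0 kb lay a median of 0.75 above the other controls on the log2 scale, and genes with transcripts over 5.0 kb lay 0.62 below. Where leaving it out changed a call, a direction or the overlap of the diets, that value is given beside the result.

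Of the 33 receptors, 30 had enough counts to be tested, and *Vdr*, *Nr4a3* and *Hnf4g* did not. With edgeR's quasi-likelihood test and a threshold of FDR ≤ 0.01 and |log2FC| > 0.5, 14 receptors were lower in MCD livers, 2 were higher and 14 passed in neither direction. Across all 14109 genes tested, 38.3% passed the same threshold, 19.2% higher and 19.1% lower. The tested receptors had a median log2 fold change of -0.45 and all genes one of -0.10. This difference hardly depended on scaling. With total counts alone, the receptors' median was -0.10 and that of all genes 0.27, and under both scalings 25 of the 30 receptors lay below the median of all genes. The split of calls did depend on it. Scaling by total counts alone gave 4 receptors higher and 8 lower, and 4539 genes higher and 848 lower in the whole table. The TMM factors themselves did not overlap between diets, at 0.642 to 0.973 in control and 1.07 to 1.259 in MCD libraries. Changes below are on the TMM scale, and the plot of fold changes shows both scalings.

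**Figure D1:**
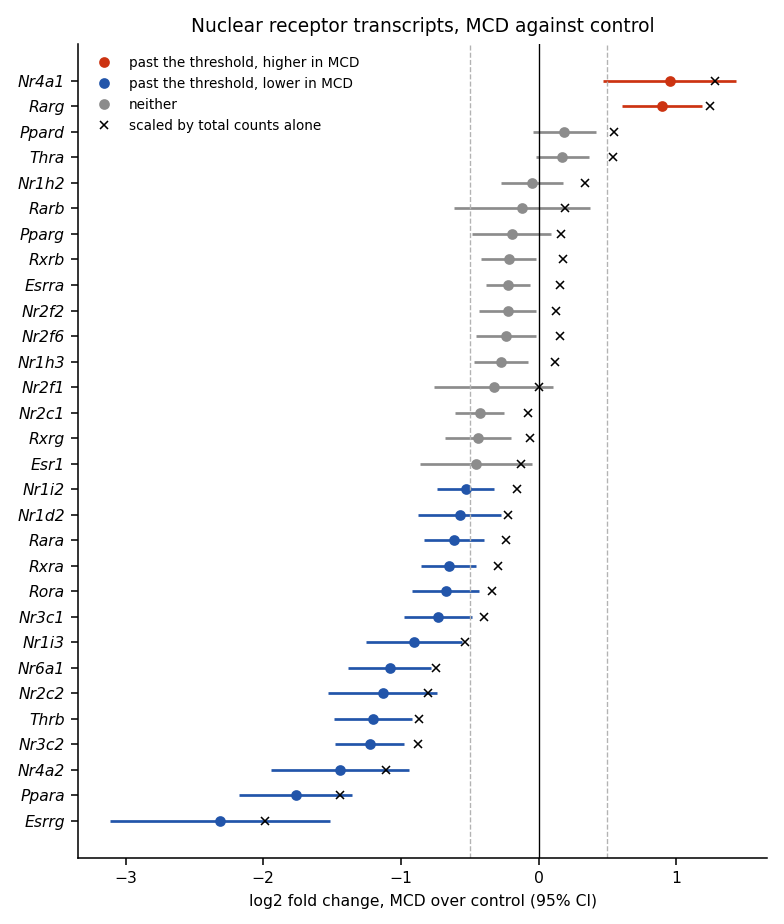
Log2 fold change of the 30 tested receptors, MCD over control, with the 95% confidence interval from edgeR (12 libraries per diet). Red and blue points passed the threshold, grey points did not, dashed lines mark the fold limit and crosses give the value with total counts alone. *Nr4a1* and *Rarg* lie to the right at 0.95 and 0.90, and *Esrrg* and *Ppara* furthest to the left at -2.31 and -1.77.

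Expression of the receptors spanned several orders of magnitude. Per kilobase of the longest annotated transcript, *Rxra* had the highest mean in control liver at 162 CPM per kb. *Nr1i3* followed at 152, *Nr2f6* at 76.2, *Nr1h3* at 63.1, *Nr1i2* at 43.3 and *Ppara* at 34.6 CPM per kb. These are receptors of hepatocyte lipid, sterol and drug metabolism, apart from *Nr2f6*, an orphan receptor. *Rxra* (119 to 229 CPM per kb) and *Nr1i3* (74.2 to 264) did not differ beyond their spread over the control libraries. In MCD liver *Rxra* was again the highest of the receptors at 103 CPM per kb, while *Ppara* stood at 10.2, below *Esrra* at 26.4 and *Nr1d2* at 14.5 CPM per kb. The lowest tested receptors were *Nr4a2* and *Nr2f1*, at 0.40 and 0.41 CPM per kb in control.

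**Figure D2:**
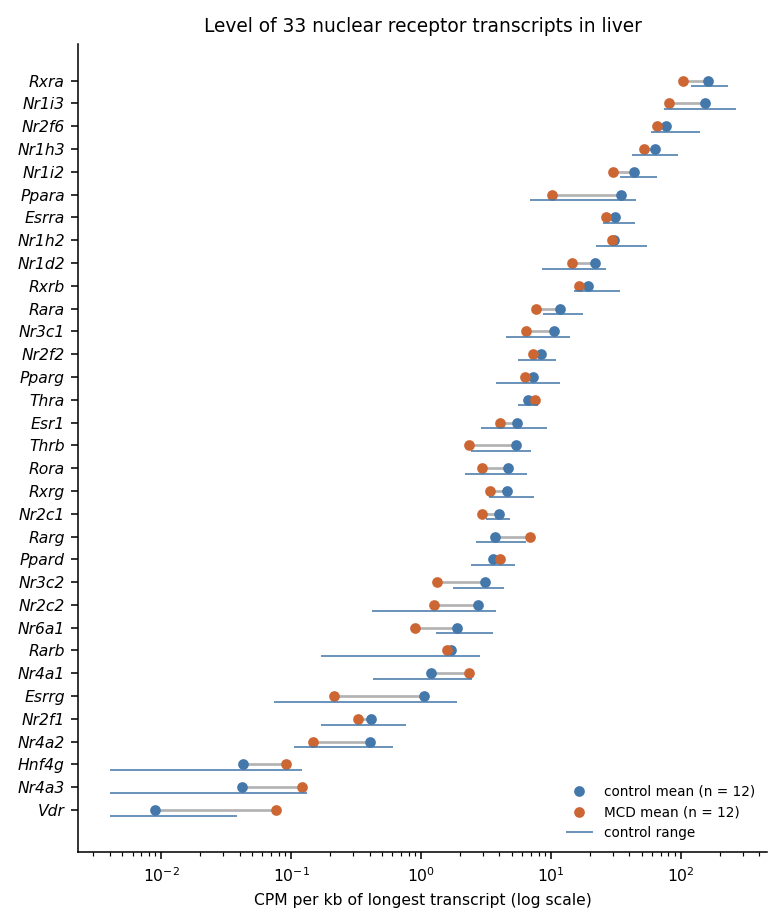
Mean level of the 33 receptors in control (blue) and MCD (orange) livers, in CPM per kb of longest transcript on a log scale, ordered by the control mean. Thin blue lines give the range over 12 control libraries, drawn from the left end of the axis where a library was at 0. *Rxra* leads in both diets, and *Ppara* shows the widest gap between diets among the 10 most abundant receptors.

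The promoter windows of 2 subfamilies whose members moved in opposite directions are shown first. *Nr4a1*, *Nr4a2* and *Nr4a3* encode the orphan receptors NUR77, NURR1 and NOR1, classical immediate-early genes induced through cyclic AMP and the factor CREB, which recognises the core TGACG. *Nr4a1* was higher in MCD and *Nr4a2* lower. Each window runs 5′ to 3′ on the gene's strand, from 250 bases before to 50 bases after the RefSeq transcription start in GRCm38.p6, and capitals mark TGACG on either strand. The windows lie at chr15:101266596-101266895 (plus strand) for *Nr4a1*, chr2:57123954-57124253 (minus strand) for *Nr4a2* and chr4:48045055-48045354 (plus strand) for *Nr4a3*.
Nr4a1: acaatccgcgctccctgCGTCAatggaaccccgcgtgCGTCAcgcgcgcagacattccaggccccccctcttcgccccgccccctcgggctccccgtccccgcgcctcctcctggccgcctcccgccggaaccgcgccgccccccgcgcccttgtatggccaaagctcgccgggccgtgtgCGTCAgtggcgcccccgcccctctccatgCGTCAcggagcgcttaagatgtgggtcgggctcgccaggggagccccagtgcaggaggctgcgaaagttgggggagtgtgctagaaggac
Nr4a2: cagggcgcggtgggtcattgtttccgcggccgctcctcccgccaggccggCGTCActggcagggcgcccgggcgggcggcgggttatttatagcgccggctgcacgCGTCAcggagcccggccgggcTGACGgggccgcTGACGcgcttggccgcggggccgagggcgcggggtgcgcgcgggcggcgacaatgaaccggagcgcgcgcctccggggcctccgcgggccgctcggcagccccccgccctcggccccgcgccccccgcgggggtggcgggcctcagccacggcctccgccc
Nr4a3: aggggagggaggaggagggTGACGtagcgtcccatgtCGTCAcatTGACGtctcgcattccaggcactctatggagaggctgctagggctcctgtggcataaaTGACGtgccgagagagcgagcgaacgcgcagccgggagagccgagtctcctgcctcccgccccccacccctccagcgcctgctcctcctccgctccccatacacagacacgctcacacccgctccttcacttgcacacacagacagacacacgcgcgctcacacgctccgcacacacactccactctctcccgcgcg
Each of the 3 windows held 4 copies of TGACG, with no overlap between copies. Of all 32851 windows of this length, 20.8% held at least 1 copy on either strand. How many of them held 4 copies was not counted. Of the 47 windows of the receptors, 14 held it (29.8%), and these belonged to 12 of the 30 receptors with a window. The core was found in receptors that were higher (*Nr4a1*), lower (*Nr4a2*, *Ppara*) and in neither class (*Nr1h2*).

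*Rara* and *Rarg* encode retinoic acid receptors and likewise moved in opposite directions. Capitals mark AGGTCA, the hexamer that many nuclear receptors themselves bind, on either strand. The window of *Rara* at chr11:98964622-98964921 (plus strand) belongs to 1 of its 4 listed starts, and that of *Rarg* at chr15:102257473-102257772 (minus strand) to 1 of 2. Each was chosen because it was the only window of its gene that held the hexamer.
Rara: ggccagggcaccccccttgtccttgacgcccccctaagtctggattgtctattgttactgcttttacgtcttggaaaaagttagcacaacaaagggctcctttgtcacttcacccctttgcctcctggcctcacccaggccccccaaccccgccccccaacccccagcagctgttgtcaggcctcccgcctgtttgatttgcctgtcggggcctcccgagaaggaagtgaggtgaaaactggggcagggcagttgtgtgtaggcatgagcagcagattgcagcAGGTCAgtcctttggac
Rarg: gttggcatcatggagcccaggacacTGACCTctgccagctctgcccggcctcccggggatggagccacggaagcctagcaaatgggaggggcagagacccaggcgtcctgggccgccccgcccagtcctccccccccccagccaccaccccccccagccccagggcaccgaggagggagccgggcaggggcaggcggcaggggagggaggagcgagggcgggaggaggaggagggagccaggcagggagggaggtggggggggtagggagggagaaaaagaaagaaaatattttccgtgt
These windows held AGGTCA at a single place, after the start in *Rara* and near the upstream end of the window in *Rarg*. The hexamer was present in 16.3% of all windows and in 9 of the 47 windows of the receptors (19.1%). The windows of *Rxra*, *Rxrg*, *Thrb*, *Pparg*, *Nr1d2* and *Nr6a1* also held it. *Rara*, *Nr6a1* and *Thrb* had windows with TGACG as well, which is not marked here. A match describes the letters and not binding.

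RXRs are the shared partners of the PPARs, RARs, LXRs, thyroid hormone receptors and xenobiotic receptors. *Rxra*, the main hepatic isotype, was at 583 CPM in the lowest, 785 in the median and 1121 in the highest control library, against 418, 520 and 540 CPM in MCD. No MCD library reached the lowest control. The fold change on the log2 scale was -0.65 (SE 0.10, FDR 1.73e-06), and -0.30 with total counts alone (FDR 0.0103). The MCD values formed a narrow band just under the lowest control. *Rxrb* (log2 fold change -0.22, FDR 0.0517) and *Rxrg* (-0.44, FDR 0.00206) did not pass, the latter because of the fold limit. The share of *Rxrb* in the summed RXR level per kb was 7.56% to 11.5% in the controls without replicate 12. That control was at 15.04%, and the MCD libraries were at 11.6% to 16.1%. The longest transcripts of *Rxra* and *Rxrb* differ in length, at 4.905 and 2.627 kb. Across all receptors the diets did not overlap for 3, *Rxra*, *Nr3c2* and *Nr6a1*, each lower in MCD, against a background of 14.4% of genes in either direction. Without control replicate 12 the number was 8, with *Ppara*, *Rora*, *Thrb*, *Nr3c1* and *Nr2c2* added, against 21.9% of genes.

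PPARs are activated by fatty acids and their derivatives. *Ppara* drives fatty acid oxidation and ketogenesis in hepatocytes. Its level was 23.5, 131 and 153 CPM in the lowest, median and highest control library, and 21.9, 34.9 and 46.2 CPM in MCD. The lowest control was replicate 12, and the other 11 controls started at 66.7 CPM, above every MCD library. Across all libraries the change was -1.77 on the log2 scale (SE 0.20, FDR 2.51e-08), and -1.83 without control replicate 12. *Ppard*, a broadly expressed isotype, had a log2 fold change of 0.19 (FDR 0.148). *Pparg*, low in hepatocytes of lean mice and the master regulator of fat cells, had one of -0.20 (FDR 0.224), which turned to 0.16 with total counts alone. Within a library, the share of *Ppara* in the summed level per kb of the 3 isotypes had a median of 77.7% in control and 47.8% in MCD. The share of *Pparg* was 15.2% and 30.0%, and that of *Ppard* 7.53% and 19.4%. Such shares do not depend on how libraries are scaled. They overlapped between diets only through control replicate 12, in which *Ppara* made up 34.8% and *Pparg* 45.4%. The other 11 controls ran from 67.2% to 85.8% for *Ppara*, and the MCD libraries from 34.8% to 60.3%.

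Of 21 genes listed as PPAR-alpha targets, 2 were higher, 8 were lower and 11 passed in neither direction, with a median log2 fold change of -0.48. Scaling by total counts alone left 3 lower. *Fabp1*, the liver fatty acid binding protein, had the lowest value (-1.73, FDR 2.82e-09), followed by *Acot1*, an acyl-CoA thioesterase (-1.17, FDR 0.000306). *Pdk4*, which restrains pyruvate oxidation (1.31, FDR 0.000118), and *Fgf21*, a fasting hormone (1.16, FDR 0.000789), were higher. Of 8 PPAR-gamma targets, 6 were tested. *Lpl*, a triglyceride hydrolase that macrophages also express, was above every control in all MCD libraries (3.201, FDR 2.75e-09). *Fabp4*, of fat cells and macrophages, was higher (1.36, FDR 6.37e-05). *Mogat1*, of triglyceride synthesis, was lower (-3.15, FDR 1.83e-06), at medians of 57 counts in control and 10.5 in MCD. Another of these targets (2 in all) was lower without control replicate 1, 4 or 7 or MCD replicate 1, as was another of the RAR targets described below (2 in all) without control replicate 5 or 12 or MCD replicate 1. The summed level of 6 markers of recruited macrophages was 20.0 to 75.8 CPM in control and 595 to 1251 CPM in MCD. Its part in these list values was not tested.

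**Figure D3:**
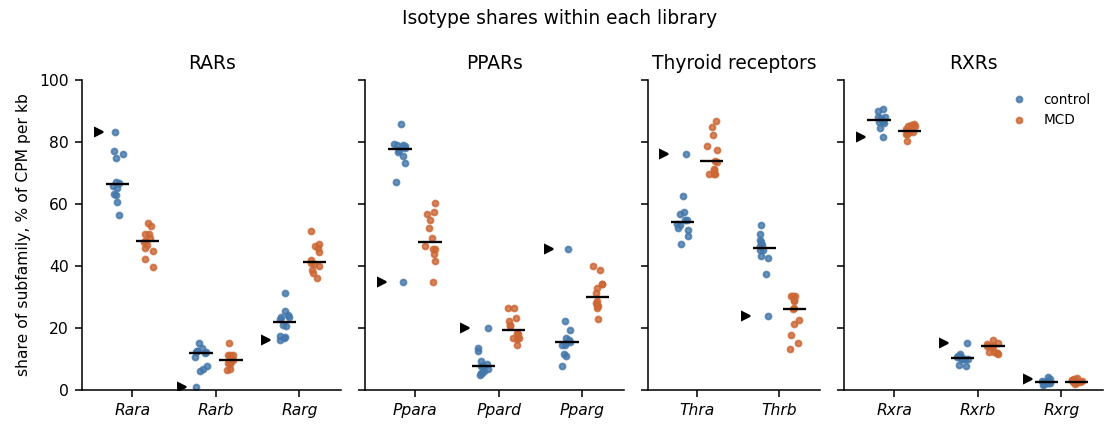
Share of each isotype in its subfamily within each library, as a percent of the summed CPM per kb, for 12 control (blue) and 12 MCD (orange) libraries. Bars are medians and the black arrow marks control replicate 12. The shares of *Rara* and *Rarg* separate the diets in all libraries, and those of the PPARs, the thyroid hormone receptors and *Rxrb* in all but that control.

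RARs bind all-trans retinoic acid, made from the vitamin A that stellate cells store. *Rara* was at 29.2, 38.9 and 59.1 CPM in the lowest, median and highest control library and at 21.5, 25.8 and 31.0 CPM in MCD. Of the MCD libraries, 10 lay below every control. The log2 fold change was -0.62 (SE 0.11, FDR 1.52e-05), and -0.52 without control replicate 12. It passed no longer with upper-quartile factors (-0.46) or total counts alone (-0.24, FDR 0.046). *Rarg* moved the other way, from 7.81, 9.81 and 18.8 CPM to 14.3, 18.6 and 28.1 CPM, and 6 MCD libraries lay above every control. Its log2 fold change was 0.90 (SE 0.14, FDR 4.35e-06). *Rarb*, which many cells induce in response to retinoic acid, did not pass (-0.12, FDR 0.676) and changed sign with the scaling. It was at 0.53 CPM in control replicate 12 and at 3.0 to 8.85 CPM in the other controls.

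Within a library, the shares of *Rara* and *Rarg* did not overlap between diets. *Rara* made up 56.4% to 83.2% of the summed RAR level in control and 39.8% to 53.9% in MCD. *Rarg* made up 15.99% to 31.2% in control and 35.9% to 51.1% in MCD. Their longest transcripts are of similar length, at 3.38 and 2.95 kb. Of 8 genes listed as RAR targets or retinoid handlers, 6 were tested. Of these, 2 were higher, 1 was lower and 3 passed in neither direction, with a median log2 fold change of 0.165. *Cyp26a1*, which degrades retinoic acid, was higher (2.12, FDR 3.17e-07), while *Lrat*, which makes the retinyl esters stored in stellate cells, was lower (-0.93, FDR 3.63e-05). *Lrat* is also in a mixed list of stellate cell markers, of which 2 of 7 were higher and 1 lower. In both lists 0 genes were lower by edgeR with total counts alone. All 8 markers of collagen-producing cells were higher, with sums of 142 to 488 CPM in control and 727 to 1292 CPM in MCD. The part of cell makeup in the RAR values was not tested.

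Thyroid hormone receptors respond to triiodothyronine, and *Thrb* is known as the predominant isotype of hepatocytes. *Thrb* was at 14.9, 34.6 and 43.5 CPM in control and at 9.28, 14.4 and 18.1 CPM in MCD, in the lowest, median and highest library. Control replicate 12 held the lowest control value, and the other 11 controls began at 23.98 CPM, above every MCD library. *Thrb* had a log2 fold change of -1.20 (SE 0.14, FDR 3.79e-08). *Thra* did not pass (0.17, FDR 0.112), and its exons overlap those of *Nr1d1* on the opposite strand. The share of *Thra* in the summed level of both receptors had a median of 54.2% in control and 73.8% in MCD per kb, and of 31.9% and 52.7% in counts not divided by length, so that the leading isotype depended on the length scaling in control and was *Thra* on both scales in MCD. Per kb, the share of *Thra* ran from 46.9% to 62.6% in the controls without replicate 12 and from 69.7% to 86.9% in MCD. Control replicate 12 was at 76.2%. The longest transcripts of the pair differ in length, at 2.45 kb for *Thra* and 6.2 kb for *Thrb*. Of 6 thyroid hormone targets, 3 were lower and 1 higher. *Me1*, malic enzyme (-3.32, FDR 2.94e-13), and *Thrsp*, a lipogenic regulator (-3.22, FDR 6.58e-10), lay below every control in all MCD libraries. *Hr*, which encodes the hairless corepressor, was higher (1.42, FDR 3.37e-05).

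The xenobiotic receptors PXR (*Nr1i2*) and CAR (*Nr1i3*) sense drugs and bile acids and induce cytochromes P450. *Nr1i3* was at 221, 430 and 788 CPM in the lowest, median and highest control library and at 204, 230 and 298 CPM in MCD. The MCD libraries sat at the lower end of a wide control range, and 4 of them lay below it. The log2 fold change was -0.90 (SE 0.17, FDR 4.65e-05). *Nr1i2* was at 87.1, 108 and 167 CPM in control and at 62.1, 70.0 and 96.5 CPM in MCD. Its log2 fold change of -0.53 (SE 0.10, FDR 5.22e-05) lay next to the fold limit. It fell inside the limit when any of 10 single libraries was left out (control replicates 1, 3 and 12, and MCD replicates 2, 3, 4, 6, 8, 11 and 12), reaching -0.43 without control replicate 12. It was also inside the limit with relative log expression factors and with DESeq2 (-0.47 each), without a low-count filter (-0.49), with a minimum of 10 counts in every library (-0.45), with upper-quartile factors (-0.38) and with total counts alone (-0.16). Of 13 CAR and PXR targets, 8 were lower and 1 higher. The phenobarbital-responsive *Cyp2b10* (-3.16, FDR 0.000442) and *Cyp2c29* (-2.29, FDR 0.000463) were lower. *Cyp2b10* was scarce, with medians of 34.5 counts in control and 6 in MCD. *Gadd45b*, a stress-responsive gene and CAR coactivator, was higher (2.99, FDR 6.07e-12). The exons of *Nr1i3* overlap those of *Tomm40l* on the opposite strand.

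The oxysterol receptors LXRα (*Nr1h3*) and LXRβ (*Nr1h2*) control cholesterol efflux and lipogenesis. Neither passed the threshold. *Nr1h3* had a log2 fold change of -0.27 (95% CI -0.47 to -0.08, FDR 0.0157) and *Nr1h2* one of -0.05 (95% CI -0.28 to 0.18, FDR 0.707), and both changed sign with total counts alone. *Nr1h2* did so without control replicate 12 as well (0.087). The 11 genes listed as LXR targets nevertheless had a median log2 fold change of -0.86, with 8 lower and 1 higher. *Scd1*, stearoyl-CoA desaturase, was at a median of 18410 CPM in control and 433 CPM in MCD (-5.47, FDR 1.64e-12), and *Srebf1*, the lipogenic regulator, was lower too (-1.60, FDR 1.45e-07). *Abcg1*, a cholesterol exporter that macrophages also express, was higher (0.93, FDR 2.69e-06).

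The corticoid receptors were both lower. The glucocorticoid receptor *Nr3c1*, which directs gluconeogenic and anti-inflammatory programs, was at 28.9, 72.2 and 89.8 CPM in control and at 30.9, 41.9 and 49.3 CPM in MCD. Control replicate 12 held the lowest value, and the other 11 controls ran from 51.7 CPM, above every MCD library. *Nr3c1* had a log2 fold change of -0.73 (SE 0.12, FDR 8.01e-06), and -0.40 with total counts alone (FDR 0.0221). The mineralocorticoid receptor *Nr3c2* was at 10.4, 19.4 and 25.7 CPM in control and at 6.22, 7.59 and 10.2 CPM in MCD, with no overlap. Its log2 fold change was -1.23 (SE 0.12, FDR 2.47e-09). Of 12 glucocorticoid targets, 3 were higher and 0 were lower by edgeR, and the median log2 fold change was 0.10. The metallothionein genes *Mt2* (1.79, FDR 9.17e-05) and *Mt1* (1.44, FDR 7.66e-05), which also respond to zinc and inflammation, led the list.

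**Figure D4:**
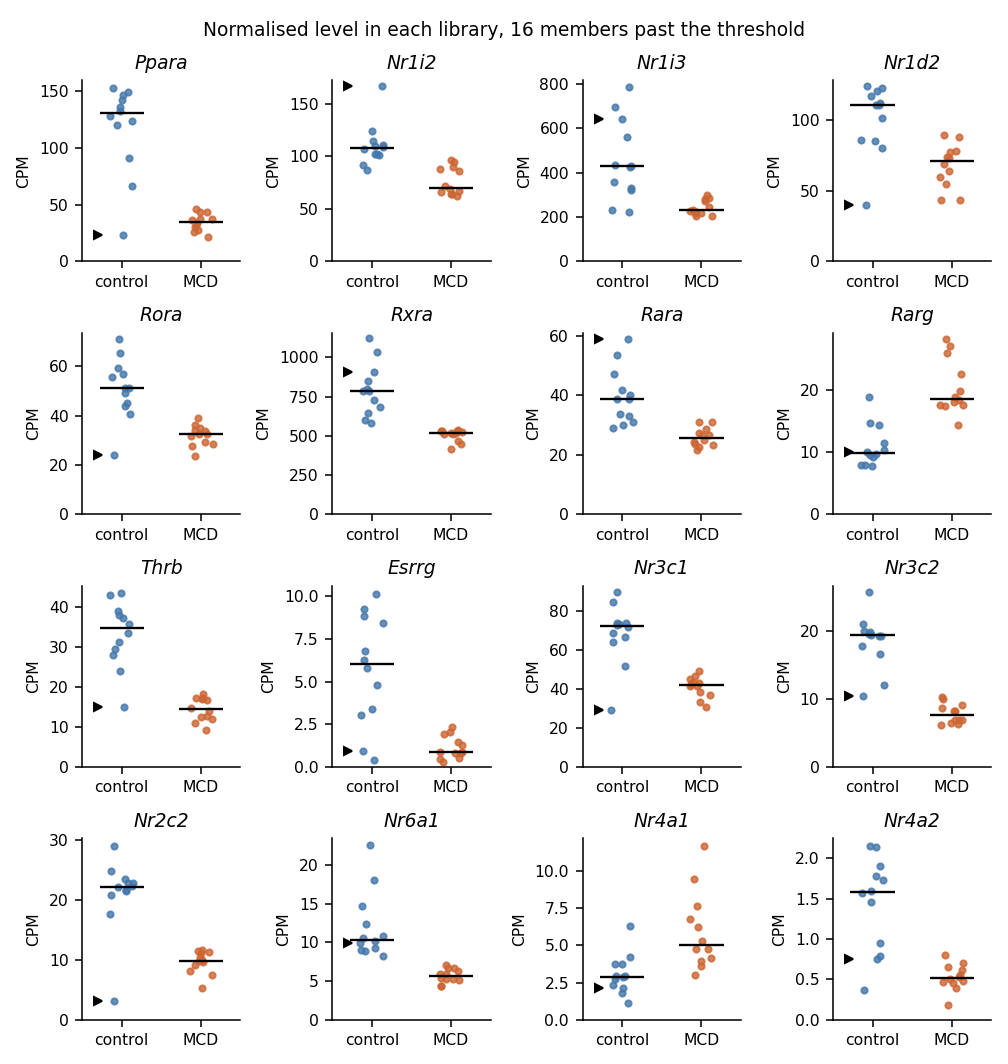
CPM in each of the 24 libraries for the 16 receptors past the threshold, each on its own linear axis from 0. Bars are medians of 12 libraries and the black arrow marks control replicate 12. Every MCD library lies below every control for *Rxra*, *Nr3c2* and *Nr6a1*, and the arrow sits at the bottom of the control group for *Ppara*, *Nr1d2*, *Rora*, *Thrb*, *Nr3c1*, *Nr3c2* and *Nr2c2*.

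The receptors of the circadian system were lower. REV-ERBβ (*Nr1d2*), a repressor of the clock, was at 39.7, 110 and 124 CPM in control and at 43.2, 71.0 and 89.1 CPM in MCD. The log2 fold change was -0.57 (SE 0.15, FDR 0.00147), and it passed no longer without MCD replicate 2 (-0.48), with upper-quartile factors (-0.42, FDR 0.0158), with a minimum of 10 counts in every library (-0.49) or with total counts alone (-0.23, FDR 0.233). *Rora*, an activator at the same elements, was at 23.8, 51.0 and 71.1 CPM in control and at 23.5, 32.5 and 39.0 CPM in MCD (-0.68, SE 0.12, FDR 2.15e-05). Without control replicate 12 the diets did not overlap for *Rora*, with the other controls at 40.6 CPM or more. *Rora* passed no longer with total counts alone (-0.34, FDR 0.0398). Of 13 clock genes, 12 were tested, 0 were higher by edgeR and 7 were lower, among them *Hlf* (-1.24, FDR 1.85e-10) and *Per3* (-0.90, FDR 0.0016). With total counts alone 1 clock gene was higher and 1 lower. The hour of tissue collection is not given in the sources used here, and its part was not tested.

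The estrogen receptor *Esr1* (-0.45, FDR 0.0488) and *Esrra* (-0.22, FDR 0.0167), a regulator of mitochondrial genes, did not pass. *Esrrg*, its relative, was at 0.40, 6.03 and 10.1 CPM in the lowest, median and highest control library and at 0.29, 0.86 and 2.32 CPM in MCD. Control values were spread over the whole range, and replicate 12 was at 0.91 CPM. For *Esrrg* the log2 fold change was -2.31 (SE 0.39, FDR 1.15e-05), the lowest among the tested receptors and also the one with the widest interval, from -3.12 to -1.51. Raw counts were small, with a median of 123 in control and 18.5 in MCD.

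Among the orphan receptors, TR4 (*Nr2c2*) was at 3.18, 22.2 and 29.0 CPM in control and at 5.31, 9.87 and 11.6 CPM in MCD (-1.13, SE 0.19, FDR 1.3e-05). Only control replicate 12 overlapped with the MCD libraries, since the other controls began at 17.6 CPM. GCNF (*Nr6a1*), a repressor of pluripotency genes in early development, was at 8.24, 10.3 and 22.5 CPM in control and at 4.37, 5.67 and 7.07 CPM in MCD (-1.08, SE 0.15, FDR 5.36e-07). The 12 MCD libraries lay below every control. TR2 (*Nr2c1*) had a log2 fold change of -0.43 (FDR 0.000102), inside the fold limit. The COUP transcription factors did not pass, with *Nr2f1* at -0.33 (FDR 0.178), *Nr2f2* at -0.22 (FDR 0.0544) and *Nr2f6* at -0.24 (FDR 0.0539). *Nr2f1* was scarce, with medians of 25.5 counts in control and 27.5 in MCD.

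The NR4A receptors were all low. *Nr4a1* was at 1.09, 2.89 and 6.28 CPM in control and at 3.04, 5.02 and 11.7 CPM in MCD, and 4 MCD libraries lay above every control. *Nr4a1* had a log2 fold change of 0.95 (SE 0.23, FDR 0.000956). *Nr4a2*, whose promoter window holds as many copies of the CREB core, was at 0.37, 1.58 and 2.15 CPM in control and at 0.18, 0.52 and 0.80 CPM in MCD (-1.44, SE 0.24, FDR 1.18e-05). These values rest on medians of 27 counts in control and 13 in MCD. *Nr4a3* was untested, with 0 to 17 counts in the control libraries and 4 to 32 in MCD. Of 10 other immediate-early genes, 8 were tested and 8 were higher, with a median log2 fold change of 2.12. *Egr2* (3.85, FDR 6.05e-11) and *Atf3* (3.65, FDR 1.93e-12) led them, each above every control in all MCD libraries. *Nr4a2* thus differed in sign from *Nr4a1* and from these genes.

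The other untested receptors were close to absent. The vitamin D receptor *Vdr*, known in liver mainly from non-parenchymal cells and bile ducts, had 0 counts in 8 of 12 control libraries and at most 3 in the rest, while 11 of 12 MCD libraries had more than 3 counts, up to 15. The 5 cholangiocyte markers were all higher in MCD, with sums of 3.71 to 14.98 CPM in control and 41.2 to 97.5 CPM in MCD, and their part in the *Vdr* counts was not tested. *Hnf4g*, a receptor of the gut and pancreas, had 0 to 5 counts in control and 1 to 10 in MCD. A count of 3, taken as the floor, corresponded to at most 0.227 CPM in the control libraries.

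Transcript length moved with the changes of the receptors. Over the 30 tested receptors the Spearman correlation of log2 fold change with the length of the longest transcript was -0.62, and -0.67 without control replicate 12. The receptors share libraries and are not independent, so this is a description. The 14 receptors lower in MCD had a median length of 5.14 kb, and the 14 that passed in neither direction one of 2.56 kb. *Ppara*, *Nr4a2* and *Nr1i3* were lower with transcripts of 3.41, 3.57 and 2.98 kb. In the whole table, genes with transcripts over 5.0 kb had a median log2 fold change of -0.28 and those under 2.0 kb one of 0.03. The part of length or RNA quality in the values of the receptors or in the isotype shares was not tested.

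**Figure D5:**
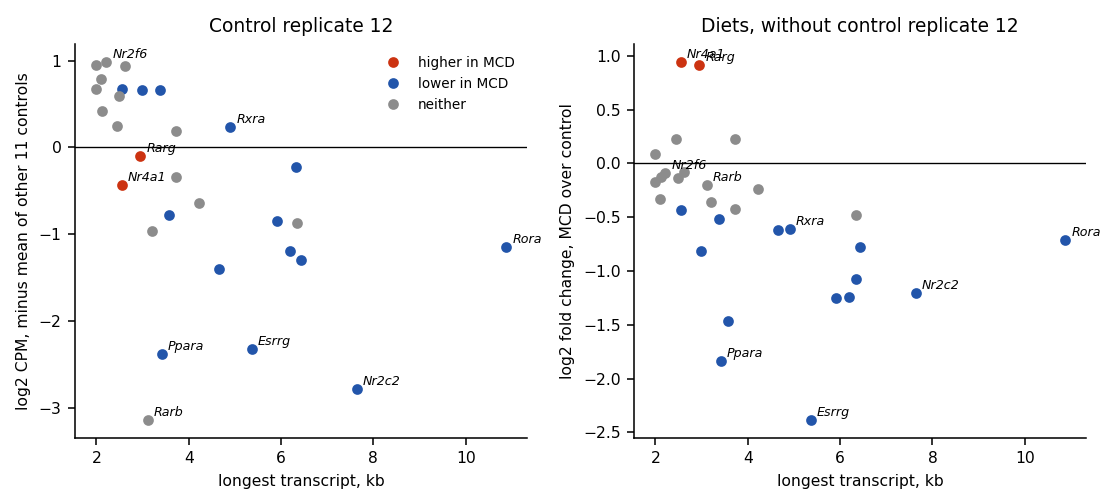
The 30 tested receptors by length of their longest transcript in kb. The left panel plots log2 CPM in control replicate 12 minus the mean of the other 11 controls, and the right panel the log2 fold change between diets without that library. Colours give the call over all libraries. Receptors with longer transcripts lie lower in both panels, with Spearman correlations of -0.73 and -0.67.

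Of the other 16 nuclear receptor genes, 9 were tested, 0 were higher by edgeR and 7 were lower, with a median log2 fold change of -0.70. *Esrrb*, an estrogen-related receptor, had the lowest value (-2.45, FDR 4.11e-08), at medians of 30.5 counts in control and 7 in MCD. Chosen after their values were seen, the bile acid receptor FXR (*Nr1h4*) was also lower (-0.64, FDR 7.09e-06), and the hepatocyte identity factor *Hnf4a* lay just inside the fold limit (-0.49, FDR 4.14e-05). Of 19 coactivators and corepressors, 8 were lower, 11 passed in neither direction and 0 were higher, and their median was -0.33. The ligand-dependent corepressor *Lcor* (-1.23, FDR 3.06e-06) and *Ppargc1b*, a coactivator of mitochondrial and lipogenic genes (-1.12, FDR 3.92e-07), led these. Without control replicate 3 or MCD replicate 2 as few as 5 cofactors were lower. The counts of 0 were checked further for glucocorticoid targets (lower) and for clock genes, other receptors, cofactors and hepatocyte markers (higher). In these lists 0 genes had an unadjusted edgeR p under 0.05 that way, and DESeq2 and limma-voom called 0. Of the 8 hepatocyte markers 4 were lower and 0 higher, with sums of 93140 to 192800 CPM in control and 70000 to 101800 CPM in MCD. With total counts alone no hepatocyte marker was lower, and 2 of the other receptors and 2 of the cofactors were. Of the Kupffer cell markers 4 of 5 were lower (137 to 423 CPM in control and 81.3 to 297 CPM in MCD, summed), as were 5 of 6 of sinusoidal endothelial cells (194 to 287 and 105 to 174 CPM). Scaling by total counts alone left 1 Kupffer cell marker and 2 endothelial markers lower. Markers of T and NK cells (4 of 4), neutrophils (2 of 2 tested) and proliferation (2 of 2) were higher, while the 3 B cell markers passed in neither direction, except for 1 that was higher without control replicate 3 or with total counts alone. The part of these cells in the values of the receptors was not tested.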

How the data were processed

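Livers of 24 mice (12 control, 12 MCD) were profiled. The authors deposited raw counts per Ensembl gene, with 1 column per library and 0 columns unused here. The submitters' processing notes name bcl2fastq, STAR 2.7.3a and mm10. The methods of the study give a stranded mRNA kit, the exon quantification pipeline and PISCES, stated for alignment to the human genome. For the mouse libraries the counter, annotation release and strand setting are not given in the sources used here, and reads of genes that overlap on opposite strands may therefore be mixed, which concerns *Nr1i3*, *Nr1h3*, *Rora*, *Rarb*, *Thra*, *Esrra*, *Nr3c2*, *Nr2f1*, *Nr2f2*, *Nr2f6* and *Nr2c2*. Symbols, exon overlaps and transcript lengths came from GENCODE mouse release M21, which named 51745 of 56205 rows. Since some identifiers are newer, no coordinates of counted genes are given. Promoter windows came from RefSeq.

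Genes were kept by filterByExpr (14109 genes), scaled by TMM and compared in R 4.3.3 with edgeR 4.0.16 (glmQLFit, glmQLFTest) over 24 libraries without covariates. The threshold was FDR ≤ 0.01 (Benjamini-Hochberg over all tested genes) and |log2FC| > 0.5. SEs are |log2FC| over the root of F, and log2 CPM used a prior count of 2. On simulated counts for this comparison (14019 genes), 193 of 200 changed genes were recovered and 1 unchanged gene was called. Totals of 16388650 to 24915175 counts limit precision for receptors below about 1 CPM, and the floor of 3 counts covers counting error only. P-values measure the spread between libraries labelled as separate samples. All 33 receptors are named. From each list of targets, cofactors or other regulators (not the cell type markers, given as counts and sums) the called genes with the largest absolute change and a mean of at least 1 CPM are named, up to 2 in each direction, and 2 genes that this rule picks are not reported here. The receptors and the lists were chosen with earlier results of these data known. *Per1* and *Nr1d1* each stand in a pair of lists, as does *Lrat*. Alternatives used DESeq2 1.42.0, limma-voom (limma 3.58.1), other scalings and filters, a block for the replicate number, a covariate from sex-linked genes, other thresholds and leaving out each library.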

Additional observations from a re-analysis of the deposited data

How the results depend on the processing

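Against 14 receptors lower and 2 higher, total counts alone gave 8 and 4, a log2 limit of 1 gave 7 and 0, and an FDR limit of 0.05 with no limit on the fold gave 19 and 2. Without a low-count filter 4 were higher, since *Vdr* (log2 fold change 2.96) and *Nr4a3* (1.52) were then tested. Relative log expression factors, upper-quartile factors, a minimum of 10 counts in every library, DESeq2, limma-voom and the sex-linked score gave 10 to 14 lower and 2 higher. Leaving out 1 library at a time gave 12 to 14 lower and 2 to 2 higher. Sign changes concerned receptors that did not pass. With total counts alone the log2 fold change was 0.16 for *Pparg*, 0.337 for *Nr1h2*, 0.118 for *Nr1h3*, 0.175 for *Rxrb*, 0.194 for *Rarb*, 0.159 for *Esrra*, 0.001 for *Nr2f1*, 0.125 for *Nr2f2* and 0.156 for *Nr2f6*. *Nr1h2* was also above 0 with upper-quartile factors (0.103), relative log expression factors (0.004), a minimum of 10 counts (0.033) and DESeq2 (0.004), and *Rarb* with upper-quartile factors (0.018) and limma-voom (0.024). With single libraries left out, *Nr1h2* ranged from -0.09 to 0.087 and *Rarb* from -0.198 to 0.005. With total counts alone *Ppard* (0.545) and *Thra* (0.543) passed as higher, and *Nr1i2*, *Nr1d2*, *Rora*, *Rxra*, *Rara* and *Nr3c1* no longer passed. The median of all genes moved up by 0.359 under that scaling, and the cause of the shifts was not tested. Replicate numbers were not taken as a pairing, since the labels give them no shared origin and not every same-number pair correlated above 0.1 (8 of 12 did, with a median r of 0.233 against -0.0592 for other numbers, and 2 of 12 controls correlated best with their own number). With total counts alone the lists had 3 PPAR-alpha targets, 5 LXR targets and 5 CAR and PXR targets lower, and 5 glucocorticoid targets higher. A replicate block gave 13 lower and 2 higher, *Nr1d2* no longer passed (FDR 0.0125), 2 rather than 4 Kupffer cell markers were lower, 4 rather than 2 PPAR-gamma targets were higher, and 1 glucocorticoid target rather than 0 was lower (*G6pc*, glucose-6-phosphatase, named after its value was seen). Of 326 values under these settings other than leaving out a library, 280 kept direction and side of the threshold, 24 no longer passed, 7 newly passed and 15 changed sign. The numbers without overlap between diets and the shares without control replicate 12 were chosen after seeing the data.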

Other observations

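Like most genes, the receptors varied more between control livers than between MCD livers when all libraries were used. The coefficient of variation of CPM was larger in controls for 28 of the 30 tested receptors, with medians of 25.4% in control and 17.2% in MCD. Without control replicate 12 it was larger in controls for 20 receptors (66.7%), and the medians were close, at 17.7% in control and 17.2% in MCD. Among all 14109 genes tested it was larger in controls for 90.0%, and for 80.7% without that library. In control replicate 12 itself, 11 of the 30 tested receptors had their lowest control value, with a median transcript length of 5.92 kb, and 8 had their highest, with a median length of 2.35 kb.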
